A study of Mus musculus with 5 samples.

Results

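Box C/D small nucleolar RNAs (snoRNAs) and the messenger RNAs of 3 of their core proteins were examined in the RNA recovered by precipitating tagged survival of motor neuron protein (SMN). The set comprised 30 snoRNA genes, taken as every gene whose symbol starts with Snord and a digit and which has a probe set of its own, with Snord47 left out, and the genes Fbl, Nop56 and Nop58. These 33 genes stand among 19937 genes with a probe set naming them alone. Each gene was read at its brightest probe set, and every snoRNA of the set had exactly 1.

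A box C/D snoRNA is a short stable RNA, usually cut from an intron of a host gene, that pairs with ribosomal RNA and directs methylation of the paired nucleotide. It works inside a particle with fibrillarin (Fbl), which is the methyltransferase, the scaffold proteins Nop56 and Nop58, and Snu13, which binds the folded RNA first. A few members, among them U8 (Snord118), U14 and U22, are needed for cleavage of the ribosomal precursor instead of, or besides, methylation. SMN is best known for assembling the spliceosomal small nuclear RNAs with their Sm proteins, and it is also known to bind fibrillarin.

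The cells were NSC-34, a mouse hybrid of neuroblastoma and motor neurons. In 1 group they carried a 3XFLAG-flSMN construct (FLAG-SMN IP, 3 arrays), and in the other they carried no FLAG construct (control IP, 2 arrays). All were differentiated in 1% serum, given doxycycline at 3 µg/ml for 3 days and irradiated with 400 mJ/cm2 of ultraviolet light before precipitation with anti-FLAG beads. The comparison asks which RNAs are recovered with tagged SMN beyond what the beads retain. The control cells hold no tagged protein of any kind, so the effect of the tag or of the added protein and that of SMN binding cannot be told apart. Lysate RNA was not analysed here, and more RNA in the cells and more RNA per particle cannot be told apart either.

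Array medians lay between 5.25 and 5.39 on the log2 scale, and pairs of arrays correlated at r = 0.954 to 0.989 across probe sets. FLAG-SMN IP replicate 1 stood apart from replicates 2 and 3 (r = 0.964 and 0.968, against 0.989 between those 2 arrays). No 2 arrays were copies, the closest pair differing by 3.57 at a single probe set. Of the 14 neuronal and motor neuron markers examined, 11 lay above the median of the presumed control probe sets (4.30 to 4.55, depending on the array) on all 5 arrays. Of the defining motor neuron genes, Isl1, Isl2 and Slc18a3 lay above that median on all 5 arrays, with values of 4.96 to 6.39. Lhx3 did so on 4 arrays (4.51 to 5.20). Mnx1 lay below that median on every array (3.40 to 4.17), and Chat was near it (4.28 to 4.69). Noradrenergic markers lay above it on all arrays at 6 of 6 measured genes, and glial and fibroblast markers at 1 of 4 and 3 of 5. No marker difference passed adjustment in limma, but Snap25 (-2.14), Th (-1.94) and Dbh (-2.23) were well below control IP. The other noradrenergic markers did not follow. Ddc (0.76) and Gata3 (0.50) were higher, and Phox2a (-0.19) and Hand2 (-0.016) differed little. Other neuronal markers ran from -1.09 at Map2 to 0.38 at Mnx1. The part of the marker differences in the snoRNA results was not tested.

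Box C/D snoRNAs were mostly higher in FLAG-SMN IP, and the mRNAs of their core proteins were not. The difference was positive for 27 of 30 snoRNAs, with a median log2 difference of 0.84, whereas it was negative for all 3 core protein mRNAs, with a median of -0.46. Over all 28187 probe sets tested the median was 0.018, and 53.1% of differences were positive. Before adjustment, 16 snoRNAs were higher and 0 lower with a limma p under 0.05, beside 4.14% of all probe sets higher and 6.31% lower. The values of the groups did not overlap at 18 snoRNAs, all with FLAG-SMN IP on the higher side, beside 12.1% of all probe sets. No snoRNA passed after Benjamini-Hochberg adjustment over all probe sets in limma, a threshold of 0.05 that 0.0142% of probe sets passed as higher. Members are not replicates and several share a host gene, so these counts carry no test of their own.

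**Figure D1:**
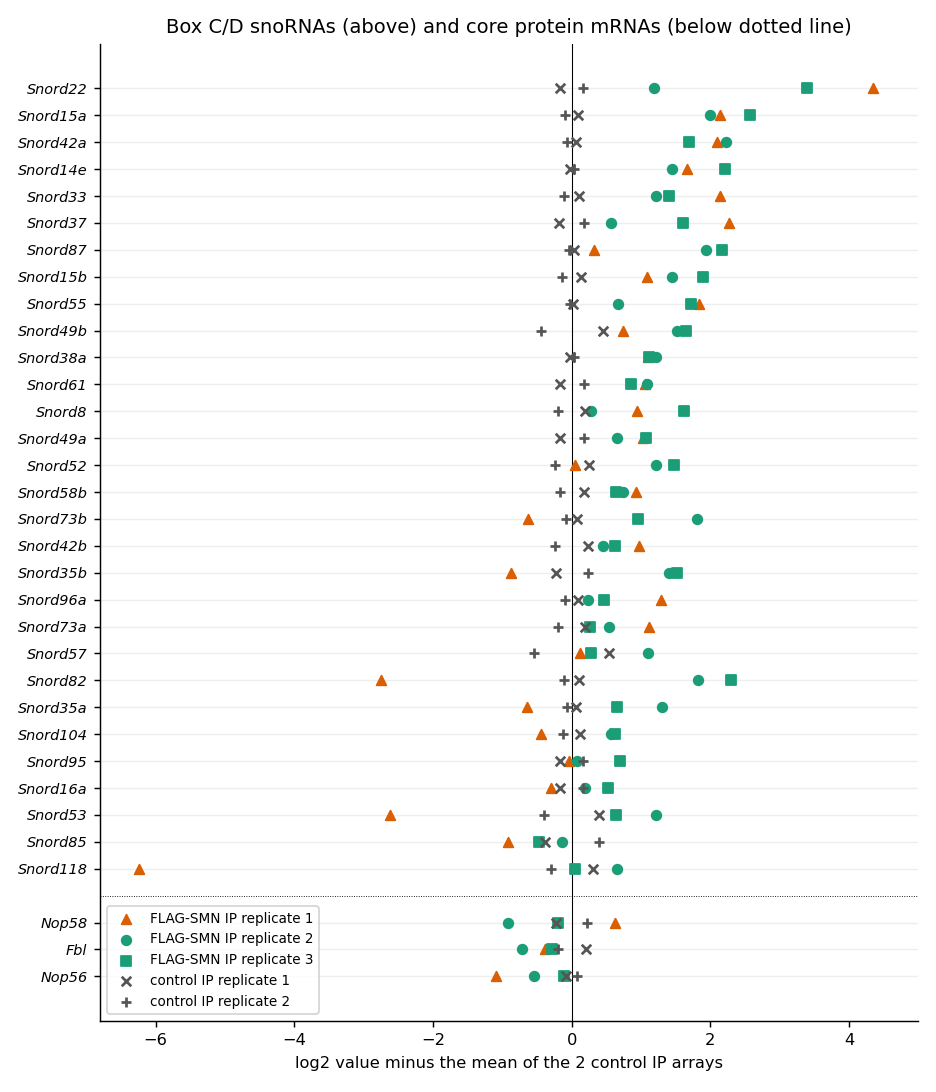
Log2 value of each gene on each array, minus the mean of its 2 control IP arrays, for the 30 box C/D snoRNAs (ordered by their difference) and the 3 core protein mRNAs. Triangles mark FLAG-SMN IP replicate 1, circles and squares replicates 2 and 3, and crosses the control arrays; 27 snoRNAs have a positive mean difference, and replicate 1 lies far to the left at Snord118, Snord82 and Snord53.

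**Figure D2:**
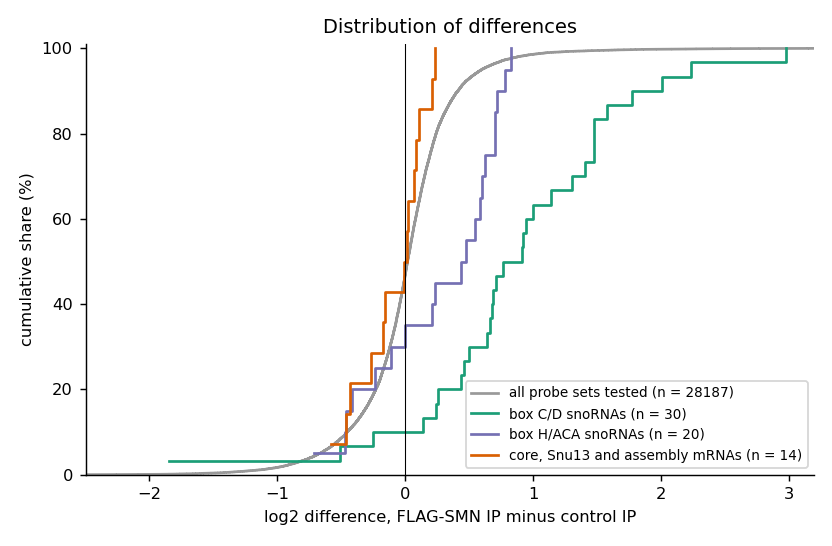
Cumulative share of genes or probe sets (y, percent) by log2 difference between FLAG-SMN IP and control IP (x). The curve of the 30 box C/D snoRNAs (median 0.84) lies to the right of that of all probe sets (median 0.018) from 0 to 2.97. The latter is the largest box C/D difference, and 3 snoRNAs fall below 0. The 20 box H/ACA snoRNAs have a median of 0.45.

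Among the guides of ribosomal RNA methylation, Snord15a had the smallest p. Its log2 values were 8.97, 8.82 and 9.40 in FLAG-SMN IP and 6.92 and 6.74 in control IP. Every FLAG-SMN array lay above both control arrays, with a gap of 1.90 between the nearest values. The difference was 2.23 (SE 0.23, 95% confidence interval 1.69 to 2.78; limma adjusted p = 0.0536). The neighbouring copy Snord15b, in the same host gene and with the same human target in the large ribosomal subunit, measured 8.80, 9.16 and 9.61 against 7.85 and 7.58. Its groups were likewise apart, with a difference of 1.48 (SE 0.27; adjusted p = 0.146).

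Snord42a, whose human counterpart guides methylation of small-subunit RNA, was at 7.42, 7.56 and 7.02 in FLAG-SMN IP and at 5.39 and 5.27 in control IP. Its groups were far apart relative to their spread, with a difference of 2.01 (SE 0.22, interval 1.49 to 2.52; limma adjusted p = 0.0729). Snord42b, which lies in the same gene, measured 8.21, 7.69 and 7.87 against 7.48 and 7.00. The groups were apart by a gap of 0.22, with a difference of 0.69 (SE 0.24; limma adjusted p = 0.384). Whether these neighbours differ in response was not tested.

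Snord33, a guide of small-subunit methylation in human cells, was at 7.34, 6.41 and 6.60 against 5.31 and 5.10, with FLAG-SMN IP replicate 1 the highest array. Its difference was 1.58 (SE 0.30; limma adjusted p = 0.152). Snord55, a large-subunit guide, was at 8.97, 7.80 and 8.87 against 7.16 and 7.12. The control arrays were nearly equal and all FLAG-SMN arrays exceeded them, with a difference of 1.41 (SE 0.36; adjusted p = 0.238). Snord49a was at 7.03, 6.65 and 7.08 against 5.83 and 6.17, a difference of 0.92 (SE 0.22; adjusted p = 0.223). Snord49b, from the same non-coding host, was at 8.67, 9.46 and 9.57 against 8.38 and 7.49, a difference of 1.30 (SE 0.37; adjusted p = 0.278). Both members of this pair kept the groups apart.

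Of the 10 snoRNAs with the smallest p, 3 were dim. Snord38a was at 4.39, 4.50 and 4.41 in FLAG-SMN IP and at 3.26 and 3.32 in control IP, and the latter lie below the presumed control medians of 4.49 and 4.55. Snord61 (3.72, 3.75 and 3.51 against 2.48 and 2.83) and Snord58b (3.67, 3.48 and 3.39 against 2.92 and 2.57) lay below the presumed control median on all 5 arrays. Their differences were 1.14, 1.00 and 0.77 (limma adjusted p = 0.108, 0.163 and 0.246), and no fold is given because their control arrays were not above the presumed controls. At the 22 snoRNAs above the presumed control median on every array, 21 differences were positive and the median was 0.82. Of these 22, 12 were higher at an unadjusted limma p under 0.05, beside 4.14% of all probe sets.

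The snoRNAs known for precursor cleavage went in both directions. Snord14e, a copy of U14, which yeast needs for its small-subunit RNA, was at 8.63, 8.42 and 9.18 against 6.94 and 7.00. Its groups lay clearly apart, with a difference of 1.77 (SE 0.26, interval 1.17 to 2.38; limma adjusted p = 0.0998). Snord22 (U22), required for small-subunit RNA in frog oocytes, was at 9.39, 6.22 and 8.43 against 4.87 and 5.20. This was the largest difference of the set, 2.97, but the FLAG-SMN arrays spanned 3.17 log2 units (SE 0.83, interval 1.01 to 4.94; adjusted p = 0.268).

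Snord118 (U8), needed for large-subunit RNA in frog oocytes, had the lowest difference of the set, and a single array decided it. The FLAG-SMN arrays read 3.76, 10.64 and 10.03, and the control arrays 10.29 and 9.69. FLAG-SMN IP replicate 1 was below the presumed control median of 4.45 while the other 4 arrays were bright. The difference was -1.85 (SE 1.90; limma adjusted p = 0.881). Leaving that array out gave 0.35 (limma adjusted p = 0.761). All 12 named genes closest to this probe set in the array's ID order lie on chromosome 12, whereas RefSeq places Snord118 on chromosome 11; which copy of U8 it reads was not tested.

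The other negative differences, at Snord85 and Snord53, did not pass. Snord85 was at 3.96, 4.73 and 4.40 against 4.48 and 5.26, with overlapping groups near the presumed control median (-0.51, SE 0.32; limma adjusted p = 0.7; -0.90 without control IP replicate 1). Snord53 was at 6.36, 10.20 and 9.63 against 9.38 and 8.58, with FLAG-SMN IP replicate 1 the lowest array (-0.25, SE 1.06, limma adjusted p = 0.989). Leaving that array out gave 0.93 (limma adjusted p = 0.254). The sign also turned, to 0.15, when control IP replicate 1 was left out instead. The bright probe sets of Snord57 and Snord104 differed little. Snord57, a small-subunit guide, was at 11.17, 12.15 and 11.33 against 11.59 and 10.50 (0.50, SE 0.41). Snord104, a large-subunit guide, was at 9.62, 10.63 and 10.70 against 10.19 and 9.94 (0.25, SE 0.35). In both, the groups overlapped.

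The other 12 snoRNAs all had positive differences, from 0.14 at Snord16a to 1.48 at Snord37 and Snord87, with limma adjusted p from 0.324 to 0.982. Of these, Snord37, Snord87 and Snord8 were higher at an unadjusted limma p under 0.05, beside 4.14% of all probe sets. The groups did not overlap at 5 of the 12, with FLAG-SMN IP higher, beside 12.1% of all probe sets. Snord37 and Snord73a had both control arrays below the presumed control median, so their differences have no exact size. The annotated lengths of the 30 snoRNAs run from 45 to 148 nucleotides and correlated with the difference at Pearson r = 0.092 across the 30, which share arrays and in part host genes, and at 0.29 without FLAG-SMN IP replicate 1.

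At some snoRNAs, but not at others, FLAG-SMN IP replicate 1 went its own way. It lay more than 1 log2 unit below both other FLAG-SMN arrays at 9 of 30 box C/D snoRNAs, beside 2.44% of all probe sets, and that far above both at 0. Snord82 showed this at 5.35 against 9.92 and 10.40, with control arrays at 8.21 and 7.99 between the extremes. Snord35b showed it at 6.69 against 8.97 and 9.09, and Snord73b at 6.09 against 8.53 and 7.67. In contrast, replicate 1 was the highest FLAG-SMN array at Snord22, Snord33, Snord37 and Snord55, among others. Its value less the mean of the other 2 arrays ran from -6.58 at Snord118 to 2.07 at Snord22, with a median of -0.30. For box H/ACA snoRNAs, the class that guides pseudouridine formation, the same median was -2.03, and 14 of 20 lay more than 1 log2 unit below both; the difference between the classes was not tested. What sets this array apart is not in the labels, and its part in these results was not tested beyond leaving it out.

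**Figure D3:**
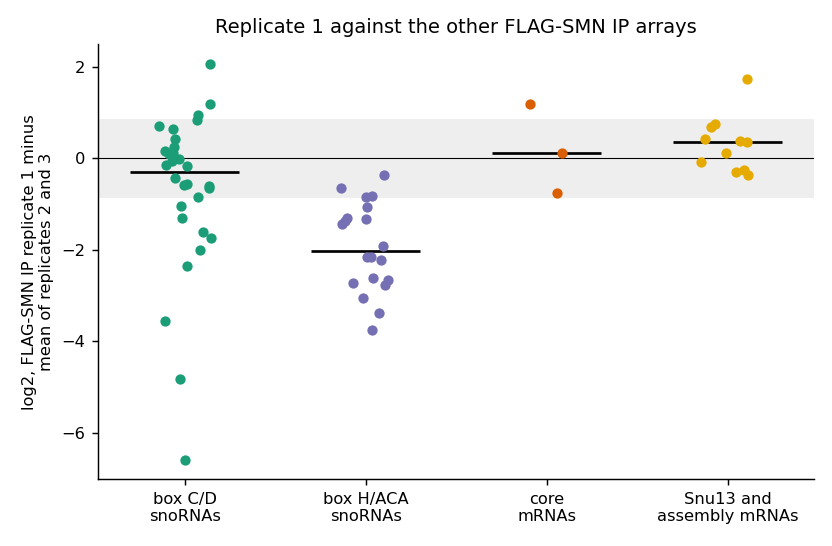
Log2 value of FLAG-SMN IP replicate 1 minus the mean of replicates 2 and 3 (y) for each gene of 4 classes (x), with points for genes and black lines for class medians. The grey band holds the central range of all probe sets, from the 5th to the 95th percentile (-0.84 to 0.83); box H/ACA snoRNAs have a median of -2.03 and box C/D snoRNAs of -0.30.

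Without FLAG-SMN IP replicate 1, 9 snoRNAs passed the adjusted threshold as higher in limma, beside 0.564% of all probe sets. They were Snord15a, Snord15b, Snord42a, Snord14e, Snord33, Snord38a, Snord35b, Snord82 and Snord87. The smallest p belonged to Snord87, whose values of 7.89 and 8.12 in replicates 2 and 3 stood over 5.99 and 5.92 in control IP (2.05, limma adjusted p = 0.00954). Snord82 followed a similar pattern (2.06, limma adjusted p = 0.0127). In this fit 29 of 30 differences were positive with a median of 1.03, and 21 snoRNAs were higher at an unadjusted p under 0.05, beside 5.92% of all probe sets. The array to leave out was chosen for standing apart, and leaving out any other array instead left 0 snoRNAs past the adjusted threshold.

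The mRNAs of the core proteins were slightly lower in FLAG-SMN IP, and no difference passed. Fbl was at 8.09, 7.76 and 8.19 in FLAG-SMN IP and at 8.67 and 8.27 in control IP. All FLAG-SMN arrays lay below both control arrays by a small margin, with a difference of -0.46 (SE 0.22, interval -0.99 to 0.07; limma adjusted p = 0.563). The other probe set of Fbl gave -0.60 with overlapping groups. The probe set used has neighbours in ID order mostly on chromosome 17, while RefSeq places Fbl on chromosome 7, where the neighbours of the other probe set lie too.

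Nop56 was at 9.26, 9.80 and 10.24 against 10.27 and 10.43. The groups were just apart, since FLAG-SMN IP replicate 3 nearly reached the control arrays, and the difference was -0.58 (SE 0.30, interval -1.29 to 0.13; limma adjusted p = 0.589). Nop58 was at 8.50, 6.95 and 7.68 against 7.64 and 8.10. Its groups overlapped fully, with FLAG-SMN IP replicate 1 the highest of all 5 arrays (-0.16, SE 0.43, interval -1.19 to 0.87; adjusted p = 0.979). The sign of Nop58 turned when FLAG-SMN IP replicate 2 (0.22) or control IP replicate 2 (0.068) was left out.

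The other protein genes of the pathway had differences on both sides of 0. Snu13 and 10 assembly or maturation factors had a median difference of 0.020, with a range of -0.43 to 0.23. In either direction, 0 of 11 passed an unadjusted limma p of 0.05, beside 4.14% of all probe sets higher and 6.31% lower. Snu13 itself was at 11.26, 11.76 and 11.26 against 11.98 and 11.73 (-0.43, SE 0.23; limma adjusted p = 0.607). The neighbours of that probe set in ID order lie on chromosome 9, while RefSeq places Snu13 on chromosome 15; the probe set with neighbours there was dimmer, with a mean of 6.43 against 6.86 (-0.43, SE 0.29). Over the 4 probe sets of Snu13 the difference ran from -0.43 to 0.21. Ruvbl1 and Ruvbl2, the ATPases of the assembly machinery, gave 0.21 and 0.011. Tgs1, which modifies the cap of U3 and U8, gave 0.020, and Coil, the scaffold of Cajal bodies, gave 0.087. Znhit6 (0.11) held FLAG-SMN IP replicate 1 at 9.24 against 7.27 and 7.73 in replicates 2 and 3.

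The snoRNA values were then set beside those of the genes that contain them. RefSeq places 27 of the 30 snoRNAs inside a single annotated gene, 2 inside more than 1 and Snord118 inside none. The strand of the snoRNAs was not given in that table, and it was not used. By kind of host, the median difference was 0.77 for 13 snoRNAs in ribosomal protein genes, 0.92 for 5 in non-coding RNA genes and 0.50 for 9 in other protein genes. A host probe set of its own existed for 13 snoRNAs in 10 host genes. The snoRNA exceeded its host at 8 of these 13 pairs, by more than 1 log2 unit at 5, and the median excess was 0.67. At the 10 pairs whose snoRNA lay above the presumed control median on every array, it exceeded its host at 6, by more than 1 log2 unit at 4. The hosts had a median difference of 0.29, from -0.58 to 0.78. At an unadjusted limma p under 0.05, 2 were higher and 0 lower, beside 4.14% and 6.31% of all probe sets.

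At the brightest host probe sets, the widest gaps lay at Rps3, Hspa8, Rpl23a and Eef2. Rps3, which encodes a small-subunit ribosomal protein, was at 12.52, 12.18 and 12.19 against 11.96 and 11.56. Its difference was 0.54 (SE 0.22, limma adjusted p = 0.451) beside 2.23 for its snoRNA Snord15a. Hspa8, the constitutive heat shock chaperone, was at 12.67, 12.26 and 12.46 against 12.31 and 12.36, with overlapping groups (0.13, SE 0.19), beside 1.77 for Snord14e. That probe set has neighbours in ID order mostly on chromosome 5, whereas the gene lies on chromosome 9, and the Hspa8 probe set with neighbours there gave 0.72 (SE 0.32); over its 3 probe sets the range was 0.13 to 0.72. Rpl23a differed by 0.69 (SE 0.29) at the probe set used, equal to Snord42b and below the 2.01 of Snord42a; its 10 probe sets ranged from 0.38 to 1.66, with 0.53 at the probe set whose neighbours lie on the gene's chromosome, 11, and processed pseudogenes make single values uncertain. Eef2, the translation elongation factor, gave 0.21 beside 1.48 for Snord37, whose control arrays were dim as described above, so the gap has no exact size.

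Nop56 is at once a core protein gene and a host, since Snord57 lies within it. The mRNA gave -0.58 and the snoRNA 0.50, and neither passed. At Wdr43, Rpl4 and Rps3a1 the snoRNA did not exceed its host: Snord53, Snord16a, Snord73a and Snord73b gave -0.25, 0.14, 0.64 and 0.71 beside -0.19, 0.36, 0.78 and 0.78. The neighbours of the Rps3a1 probe set lie mostly on chromosome 13, while the gene is on chromosome 3. Ncl, the nucleolin gene that contains Snord82, was at 10.24, 9.62 and 9.99 in FLAG-SMN IP. The drop of Snord82 in replicate 1 was thus not seen in its host. The snoRNA probes may also read unspliced host RNA, which was not measured separately.

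**Figure D4:**
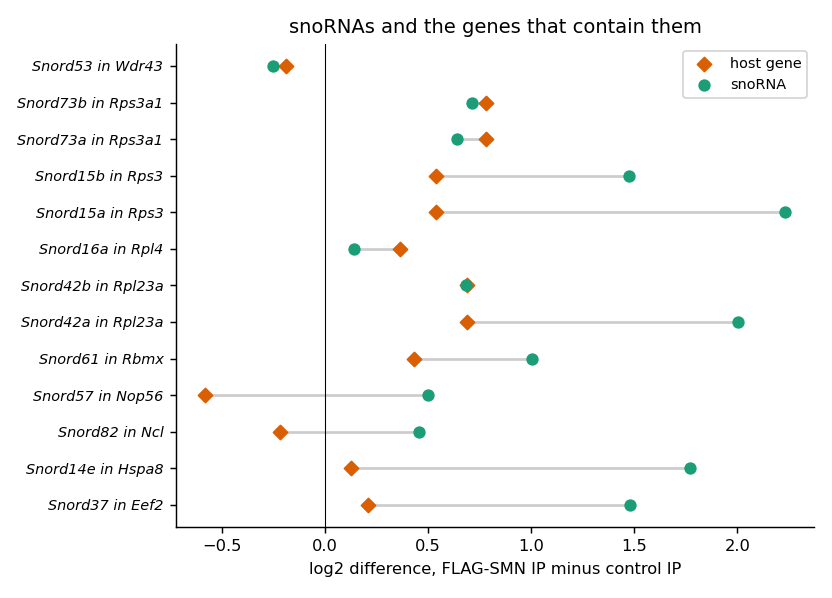
Log2 difference between FLAG-SMN IP and control IP (x) for 13 snoRNAs (circles) and the brightest probe set of the genes that contain them (diamonds), joined by a line for each pair. The snoRNA lies to the right of its host at 8 of 13 pairs, most at Snord15a in Rps3 (2.23 against 0.54) and Snord14e in Hspa8 (1.77 against 0.13). The order depends on the host probe set, since the Hspa8 probe set with neighbours on the gene's chromosome gave 0.72.

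Box H/ACA snoRNAs, measured on the same arrays, had smaller differences. Their median was 0.45 over 20 genes, and 13 (65%) were positive, beside 53.1% of all probe sets. Only 1 was higher at an unadjusted limma p under 0.05, beside 4.14% of all probe sets. Beside 12.1% of all probe sets, 2 (10%) kept the groups apart with FLAG-SMN IP on the higher side. Without FLAG-SMN IP replicate 1 the median rose to 0.97, near the 1.03 of box C/D snoRNAs. In that fit 15 of 20 were higher at an unadjusted limma p under 0.05, beside 5.92% of all probe sets. The adjusted threshold was passed by 1, beside 0.564% of all probe sets. The class medians were thus closer without that array than with it. The mRNAs of the box H/ACA core proteins had a median of -0.24, with Dkc1 at -0.93 (limma adjusted p = 0.248) and Nhp2 at 0.46 (adjusted p = 0.407).

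A further 15 probe sets carry a Snord symbol together with another gene and fell outside the set. All 15 differences were positive, from 0.13 to 2.68, beside 53.1% of all probe sets. At an unadjusted limma p under 0.05, 8 were higher, beside 4.14% of all probe sets. These 8 do not stand for separate genes. Of them, 5 carry the symbols Snord116l1, Snord116l2 and Gm26504, and 2 carry Snord14c, Snord14d and Hspa8. A pair of probe sets shared by Snord14c, Snord14d and Hspa8 gave 2.02 and 2.68 (limma adjusted p = 0.0853 for both), while the 3 probe sets of Hspa8 alone gave 0.13 to 0.72. The 7 probe sets shared by Snord116l1, Snord116l2 and Gm26504, from an imprinted cluster of snoRNAs without a known ribosomal target, gave 0.73 to 2.49.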

How the data were processed

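RNA recovered with anti-FLAG beads was hybridized to 5 Affymetrix arrays of 1 colour, 3 FLAG-SMN IP and 2 control IP, grouped by sample title. The authors deposited log2 values; RMA, which corrects background, equalizes the distributions of the arrays and summarizes probes, is named in the submitters' processing notes, with no settings given in the sources used here. Equalized distributions hide a general difference in recovered RNA. The table held 34760 rows with 0 missing values; 6573 rows with IDs below the lowest annotated ID were taken as presumed controls, a rule chosen after the files were opened, and 28187 probe sets were tested. Nothing says that replicates were separate cultures, so the p-values reflect the spread between these arrays alone, possibly technical, and precision is limited by how few arrays there are.

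Linear models were fitted with lmFit and eBayes of limma 3.58.1 under R 4.3.3 (2-sided tests, no block, 3 residual and 3.8 prior degrees of freedom) and p-values were adjusted by Benjamini-Hochberg across the 28187 tested probe sets. Intervals are 95% intervals of that fit. On data simulated with each probe set's mean and residual spread, the adjusted test recovered 4.18%, 61.7% and 84.4% of changes of 1, 2 and 3 log2 units. There were 20 draws with 200 of 28187 probe sets changed. The simulated noise was normal and independent, so the shared departure of FLAG-SMN IP replicate 1 was not in it. Recovery at these snoRNAs may therefore differ. Symbols came from the platform annotation, and host genes from a RefSeq gene table (GRCm38) by containment. The members and lists were chosen with earlier results of these data known. Values on every array are given for the 10 snoRNAs of smallest p, the 3 of most negative difference, the 3 of highest mean and the 3 core protein mRNAs; other members were named after their values were seen, as were the host genes described. No snoRNA sequences are shown. Alternatives changed the scaling (cyclic loess, or centring on the brighter probe sets), the probe sets (the brighter ones alone, all rows of the table, or a mean per gene), the variance model (trend and robust moderation, or weights per array) and the samples (a block for the replicate number, or 1 array omitted). Figures used matplotlib 3.10.9 in Python 3.11.15.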

Additional observations from a re-analysis of the deposited data

How the results depend on the processing

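The median difference of the snoRNAs stayed positive under every alternative run, from 0.71 to 1.03 when 1 array was left out and 0.71 to 1.08 otherwise, and the median of snoRNAs minus core mRNAs ran from 1.17 to 1.52 when 1 array was left out. The median excess over the host gene ran from 0.46 to 1.03 in that set. The number of snoRNAs higher at an unadjusted limma p under 0.05 was 21, 16 and 14 without FLAG-SMN IP replicates 1, 2 and 3, and 0 were lower. Without replicate 1, 5.92% of all probe sets were higher. Where no array was left out, the number higher was 12 to 17, and 0 were lower. The 12, and the lowest median there of 0.71, came from the brighter probe sets alone, where 23 of the 30 snoRNAs were tested. The number past the adjusted threshold was 9 without FLAG-SMN IP replicate 1 and 0 without FLAG-SMN IP replicate 2 or 3. It was 3 with centring on brighter probe sets, 2 with array weights and 1 when a gene's probe sets were averaged. Without FLAG-SMN IP replicate 1, 0.564% of all probe sets passed as higher, against 0.0142% in the main fit. For the other alternatives the share of all probe sets is not given here, so their counts cannot be read as particular to the snoRNAs. The cause was not tested. The differences of Fbl and Nop56 stayed negative and none passed the adjusted threshold, from -0.66 to -0.26 and from -0.82 to -0.33 when 1 array was left out, and that of Nop58 ran from -0.55 to 0.22; before adjustment, limma's p for Nop56 was 0.0207 with the replicate block and 0.0233 without FLAG-SMN IP replicate 3.

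Some single snoRNAs changed sign. When 1 array was left out, Snord53 ran from -0.99 to 0.93, Snord82 from -0.47 to 2.06, Snord16a from -0.050 to 0.36, Snord118 from -3.09 to 0.35 and Snord57 from -0.041 to 1.04. Snord53 was at 0.47 with array weights, and with the replicate block Snord82 was at -0.47 and Snord16a at -0.050. With the replicate block the median of the snoRNAs was 0.79, with 17 higher at an unadjusted limma p under 0.05 and 0 past the adjusted threshold. Since control IP has no replicate 3, the block fit takes the group difference from replicates 1 and 2 alone. Its differences therefore equal those without FLAG-SMN IP replicate 3, also for Nop56 (-0.82 in both). The 2 fits are not separate checks of the differences. The labels tie arrays of the same number by that number only. The deviations from the group mean correlated at 0.13 for replicates 1 and -0.20 for replicates 2. The largest correlation was 0.42, between FLAG-SMN IP replicate 3 and control IP replicate 2. With 2 control arrays, the values for control IP replicates 1 and 2 are equal with opposite signs. Where an arm was left with 1 array, it was assumed to vary like the other. Signal near the presumed controls limits Snord38a, Snord61, Snord58b, Snord37 and Snord73a, none of which had a control array above their median.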
